A study of Mus musculus with 18 samples.

Results

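The airway surface is defended by secreted proteins that damage microbes, bind them or withhold nutrients from them, and 8 mouse genes of this kind were followed across lung epithelial cells sorted by Wnt reporter activity. The genes were Bpifa1, Bpifb1, Ltf, Reg3g, Lcn2, Lyz1, Lyz2 and Pigr, which make up 8 of the 30142 genes measured. Each was taken from a probe set of the array whose only annotated symbol was that gene, and each had exactly 1 such probe set. The genes were taken by name and the rule used no value, but they were chosen with earlier results of these data known. The cells came from TCF/Lef:H2B/GFP mice aged 8 to 12 weeks, in which TCF/Lef sites, the DNA elements through which beta-catenin acts, drive a histone-bound green fluorescent protein. All 3 groups carried this reporter, and no group came from mice without it. Lungs were taken with trachea and bronchi, although the labels name the tissue Distal Lungs. Endothelial and blood cells were removed with CD31 and CD45 beads, and EpCAM+ living cells were then sorted for high, low or no GFP, giving the groups Wnthigh, Wntlow and Wntnegative. Each array held RNA pooled from 3 to 4 animals of 1 experiment. The files hold no measure of the reporter protein itself or of the share of each cell type in a gate.

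Each group had 6 arrays. Experiments 4, 5, 7, 8 and 9 each gave 1 array of every group; experiment 2 gave a Wnthigh array alone, and experiment 3 the remaining Wntlow and Wntnegative arrays. The arrays fell into 2 runs with different scales: the array medians (log2) were 4.62 to 4.77 up to experiment 5 and 3.55 to 3.69 from experiment 7 on. Every comparison was therefore made with the run as a term, and SDs over 6 arrays include the offset between runs. Deposited values reached 19.93, although a 16-bit scanner ends at a log2 of 16, so differences are given in log2 units of the files and were not turned into RNA ratios. The 95th percentile of 23 antigenomic background probe sets, 4.57 to 5.17 per array, served as the background level. An array's 73 brightest probe sets are called the top of its scale, a limit chosen after the values were seen. The epithelial genes Cdh1 (E-cadherin) and Epcam were well above background in each group, with means of 17.27, 17.02 and 16.93 for Cdh1 and 10.78, 10.75 and 10.71 for Epcam in Wnthigh, Wntlow and Wntnegative arrays.

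Bpifa1 and Bpifb1 encode secreted proteins of the BPI fold family, relatives of the neutrophil protein BPI that bind lipids and bacterial surfaces and are made by secretory cells of the conducting airways. Lactoferrin (Ltf) binds iron, and lipocalin 2 (Lcn2) captures the siderophores with which bacteria collect iron. Reg3g is a C-type lectin that binds peptidoglycan, and the lysozymes Lyz1 and Lyz2 cut the same polymer. In mice, Lyz2 is known as a gene of macrophages, neutrophils and alveolar type II cells, and Lyz1 as the lysozyme of intestinal Paneth cells. Pigr encodes the polymeric immunoglobulin receptor, which carries IgA across the epithelium and is shed into the airway lumen as secretory component. Cytokines such as IL-17, IL-22 and IL-1, acting through NF-kappaB, C/EBP and STAT factors, are known inducers of several of these genes.

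The bases just upstream of the genes are shown for 5 of them, 250 bases each up to the base before the annotated start, from RefSeq on build GRCm38.p6. Lyz1 (chr10:117292869-117293118, minus strand) and Lyz2 (chr10:117282273-117282522, minus strand) are neighbouring copies and are shown because their values moved together. Capitals mark bases that differ or have no partner in the alignment of these sequences.
Lyz1: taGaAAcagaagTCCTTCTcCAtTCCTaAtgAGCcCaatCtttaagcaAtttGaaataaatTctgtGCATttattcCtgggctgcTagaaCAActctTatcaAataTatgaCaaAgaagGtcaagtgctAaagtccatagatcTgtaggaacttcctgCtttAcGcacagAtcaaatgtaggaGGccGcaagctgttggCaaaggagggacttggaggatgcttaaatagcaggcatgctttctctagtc
Lyz2: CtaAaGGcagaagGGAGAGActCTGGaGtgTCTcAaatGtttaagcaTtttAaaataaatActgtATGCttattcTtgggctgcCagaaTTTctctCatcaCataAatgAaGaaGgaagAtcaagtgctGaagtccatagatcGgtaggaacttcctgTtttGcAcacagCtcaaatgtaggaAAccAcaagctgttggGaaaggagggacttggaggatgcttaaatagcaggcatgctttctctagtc
Of 252 aligned columns, 200 were identical (79.4%), 48 were mismatches and 4 were gaps, and the 50 bases next to the start were identical. The transcripts of these copies are also close relatives, so signal of either gene on the probes of the other could not be separated, and the levels of Lyz1 and Lyz2 are uncertain for that reason. The values that follow are those of each gene's own probe set.

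Bpifa1 (chr2:154142630-154142879, plus strand), Reg3g (chr6:78468875-78469124, minus strand) and Lcn2 (chr2:32387740-32387989, minus strand) are shown as examples of the contrasting patterns described below. Capitals mark every match, on either strand, to TATAAA, to a kappaB pattern (GGG, any 5 bases, then CC), to TTNNGNAA (a C/EBP pattern), to TTCNNNGAA (a STAT pattern) or to AGGAAG (the core of an ETS site).
Bpifa1: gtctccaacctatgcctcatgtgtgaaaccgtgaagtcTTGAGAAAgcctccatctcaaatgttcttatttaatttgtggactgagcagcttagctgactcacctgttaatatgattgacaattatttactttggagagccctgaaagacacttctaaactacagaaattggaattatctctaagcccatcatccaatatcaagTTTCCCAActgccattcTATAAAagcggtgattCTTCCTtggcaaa
Reg3g: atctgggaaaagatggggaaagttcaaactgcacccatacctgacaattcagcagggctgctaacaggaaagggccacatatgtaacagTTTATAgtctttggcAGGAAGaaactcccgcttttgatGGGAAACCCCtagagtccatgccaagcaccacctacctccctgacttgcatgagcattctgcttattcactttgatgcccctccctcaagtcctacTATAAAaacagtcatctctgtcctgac
Lcn2: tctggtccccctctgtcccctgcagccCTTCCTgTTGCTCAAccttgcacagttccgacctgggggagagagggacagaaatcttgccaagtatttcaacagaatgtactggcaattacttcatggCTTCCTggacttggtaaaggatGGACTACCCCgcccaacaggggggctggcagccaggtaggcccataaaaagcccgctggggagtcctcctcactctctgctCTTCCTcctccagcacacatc
The TATAAA match lies 29 bases before the start in Bpifa1 and 27 before it in Reg3g, and a further match of Reg3g is on the other strand. The 8 genes have 9 such windows, since Bpifb1 has 2 annotated starts. A match in at least 1 window was found for TATAAA in 2 genes, for the kappaB pattern in 5, for the C/EBP pattern in 5, for the STAT pattern in 1 (Bpifb1) and for the ETS core in 7. The STAT and ETS matches of Bpifb1 were both in the window of the second start. Counted per window, the shares over all 32851 windows of the same length were 12.4%, 45.8%, 36.8%, 7.02% and 29.5%. Such matches are letters only, and no binding was measured here.

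Bpifa1 and Bpifb1 were highest in Wntlow cells, intermediate in Wnthigh cells and lowest in Wntnegative cells. Bpifa1 averaged 17.75 ± 0.98 (SD, n = 6 arrays, as for all means below) in Wntlow, 15.08 ± 1.42 in Wnthigh and 7.05 ± 1.03 in Wntnegative arrays. The runs are given apart, since their scales differ. Array by array, Bpifa1 read 17.14, 16.21 and 17.59 in the Wntlow arrays of experiments 3, 4 and 5 and 18.44, 18.90 and 18.23 in experiments 7, 8 and 9. In Wnthigh arrays it read 12.80, 16.06 and 14.66 in experiments 2, 4 and 5 and 14.33, 16.62 and 15.98 in experiments 7, 8 and 9. The Wnthigh spread was wider than the Wntlow one. The Wntnegative arrays read 6.92, 6.95 and 8.68 in experiments 3, 4 and 5 and 5.55, 6.67 and 7.55 in experiments 7, 8 and 9. Within each run the 3 groups did not overlap, and the order was low, high, negative in both. Experiment 4 brought the Wnthigh and Wntlow arrays closest, with a difference of −0.15.

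Bpifb1, the larger BPI fold protein, had the same order. Its step from Wntlow to Wnthigh was wider than that of Bpifa1, and its step from Wnthigh to Wntnegative was narrower. It averaged 17.00 ± 1.34 in Wntlow, 11.57 ± 1.81 in Wnthigh and 5.43 ± 0.62 in Wntnegative arrays. Wntlow arrays read 16.17, 15.41 and 15.85, then 18.26, 18.43 and 17.89 in the later run, in the order of experiments given for Bpifa1. Wnthigh arrays read 8.66, 14.27 and 11.26, then 11.23, 11.85 and 12.13. The Wnthigh values thus spread over more than 5 log2 units in the earlier run and under 1 in the later, while no Wnthigh array reached a Wntlow array of its run. Wntnegative arrays read 4.97, 6.04 and 6.00, then 4.70, 4.96 and 5.94, and 5 of the 6 were above background. Those of experiments 7 and 8 were only just above it, so the sizes of the differences from Wntnegative cells are uncertain. The adjacent relatives Bpifa3 and Bpifa5, which flank Bpifa1 in the RefSeq gene order, were below background on all 18 arrays.

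**Figure D1:**
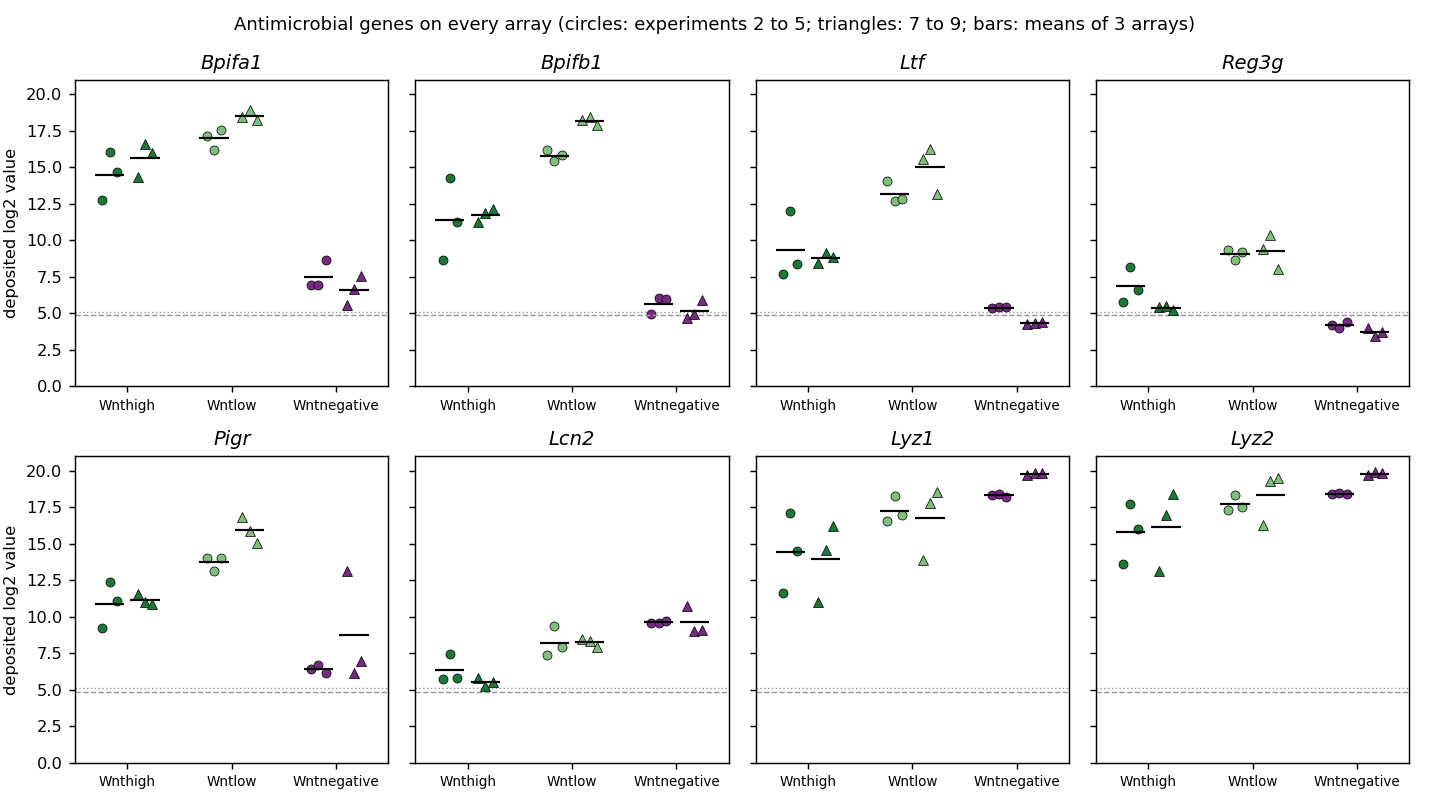
Deposited log2 value (vertical axis) of each gene on every array, by Wnt group (horizontal axis). Circles are experiments 2 to 5, triangles experiments 7 to 9, short bars the mean of 3 arrays, and the dotted and dashed lines the mean background level of the earlier and later run. Bpifa1, Bpifb1, Ltf, Reg3g and Pigr peak in Wntlow cells, Lcn2, Lyz1 and Lyz2 in Wntnegative cells, and 1 Wntnegative Pigr value stands at 13.11.

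Relative to Wntnegative cells, limma (Benjamini-Hochberg adjusted over 30142 genes, here and below) gave Bpifa1 a log2 difference of 10.70 (SE 0.63, adjusted p = 3.81e-08) in Wntlow and of 8.02 (SE 0.63, adjusted p = 4.14e-08) in Wnthigh cells. For Bpifb1 the differences were 11.57 (SE 0.73, adjusted p = 5.74e-08) and 6.13 (SE 0.73, adjusted p = 3.4e-06). Both genes were lower in Wnthigh than in Wntlow cells, Bpifa1 by −2.68 (SE 0.63, adjusted p = 0.00367) and Bpifb1 by −5.44 (SE 0.73, adjusted p = 2.86e-05). The 3 comparisons share arrays, so these values are not independent of each other. Every experiment that gave an array of each group compared showed the same direction, 6 of 6 for low against negative and 5 of 5 for the other comparisons. In bulk samples such as these, fewer cells that make a protein and less RNA per cell cannot be told apart.

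Ltf and Reg3g had the order of the BPI fold genes and were close to or below background in Wntnegative cells. Ltf averaged 14.10 ± 1.50 in Wntlow, 9.09 ± 1.51 in Wnthigh and 4.87 ± 0.58 in Wntnegative arrays. Its Wntlow values were 14.09, 12.67 and 12.85 in the earlier and 15.57, 16.24 and 13.18 in the later run. Its Wnthigh values were 7.68, 12.01 and 8.40, then 8.43, 9.16 and 8.88, so the array of experiment 4 stood more than 3 log2 units above the other 2 of its run. Wntnegative arrays read 5.35, 5.42 and 5.42, just above background, then 4.27, 4.32 and 4.44, below it. The groups did not overlap in either run. The log2 difference from Wntnegative was 9.23 (SE 0.72, limma adjusted p = 4.34e-07) in Wntlow and 4.22 (SE 0.72, adjusted p = 1.47e-04) in Wnthigh cells, and Wnthigh differed from Wntlow by −5.00 (SE 0.72, adjusted p = 5.43e-05). In the later run, where Wntnegative arrays were below background, the differences were at least 10.19 and at least 4.02 when the background level stood in for them.

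Reg3g averaged 9.18 ± 0.79 in Wntlow, 6.12 ± 1.11 in Wnthigh and 3.97 ± 0.35 in Wntnegative arrays. Wntlow arrays read 9.35, 8.66 and 9.22, then 9.44, 10.38 and 8.03, and Wnthigh arrays 5.79, 8.15 and 6.61, then 5.45, 5.50 and 5.21. All 12 were above background, whereas the Wntnegative arrays, at 4.22, 3.99, 4.42, 4.03, 3.45 and 3.71, were all below it. With the background level in their place, Reg3g was at least 4.19 higher in Wntlow (limma adjusted p = 6.03e-07) and at least 1.13 higher in Wnthigh cells (adjusted p = 5.56e-04) than in Wntnegative cells. In the later run alone the Wnthigh call was lost (adjusted p = 0.0574), with a limit of 0.58 against 1.68 in the earlier run. Wnthigh was below Wntlow by −3.06 (SE 0.42, adjusted p = 3.8e-05). Reg1, the gene next to Reg3g, was below background on all 18 arrays, as were Reg2, Reg3a, Reg3b, Reg3d and Reg4.

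Pigr, the IgA carrier, had the same order but an exceptional Wntnegative array. It averaged 14.82 ± 1.38 in Wntlow, 11.01 ± 1.04 in Wnthigh and 7.58 ± 2.73 in Wntnegative arrays. Wntlow arrays read 14.03, 13.11 and 14.03, then 16.84, 15.89 and 15.04, and Wnthigh arrays 9.20, 12.37 and 11.05, then 11.54, 10.99 and 10.90. Wntnegative arrays read 6.42, 6.67 and 6.16 in the earlier run and 13.11, 6.13 and 7.00 in the later. The array of experiment 7 thus lay above every Wnthigh array of its run and below every Wntlow array. The log2 difference from Wntnegative was 7.25 (SE 0.93, limma adjusted p = 4.1e-05) in Wntlow and 3.43 (SE 0.93, adjusted p = 0.00702) in Wnthigh cells. Without the Wntnegative array of experiment 7 these became 8.26 (adjusted p = 4.21e-07) and 4.44 (adjusted p = 9.18e-06). Wnthigh against Wntnegative had the same direction in 4 of 5 shared experiments, and in the later run alone the difference of 2.40 did not pass (adjusted p = 0.387). Wnthigh was below Wntlow by −3.82 (SE 0.93, adjusted p = 0.00472), in 5 of 5 shared experiments, a call that was lost in the later run alone (adjusted p = 0.0997).

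On that Wntnegative array Pigr had the largest excess of all genes over the other Wntnegative arrays of its run. Experiment 7 minus the mean of experiments 8 and 9 was 6.55 for Pigr, rank 1 of 30142 genes, and 18 genes were at least 2 higher. Next came Slc26a4 (pendrin, an anion exchanger), at 12.48 against 6.14 and 6.78, and Ly6i, at 12.46 against 7.63 and 8.10. Vnn1, a pantetheinase, followed at 14.57 against 10.95 and 11.16. H2-Eb1, an MHC class II gene, came next at 11.12 against 9.94 and 5.76, though the earlier Wntnegative arrays read 12.02 to 12.74. Cfb, complement factor B, read 7.90 against 4.79 and 4.98. Among the other 7 antimicrobial genes Lcn2 was 1.65 higher there and Bpifa1 1.56 lower (a difference of −1.56), and the rest differed by −0.75 to 0.45. These genes were named for their rank on this array after the values were seen. The mean of the goblet cell markers on this array was 4.81, against 4.84 and 5.12 in experiments 8 and 9, and that of the club cell markers 12.24, against 12.28 and 13.06. The cause of the departure was not tested.

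Lcn2 ran the other way: it was highest in Wntnegative cells and lowest in Wnthigh cells. Its means were 9.61 ± 0.60 in Wntnegative, 8.24 ± 0.67 in Wntlow and 5.93 ± 0.78 in Wnthigh arrays. Wntnegative arrays read 9.54, 9.60 and 9.71, then 10.71, 9.03 and 9.08. Wntlow arrays read 7.38, 9.37 and 7.90, then 8.51, 8.33 and 7.96, each below its Wntnegative partner of the same experiment. The partner differences were thus all negative. Wnthigh arrays read 5.76, 7.46 and 5.80, then 5.82, 5.25 and 5.52. All but that of experiment 4 were close to background, so the sizes of the Wnthigh differences are uncertain. Only in the earlier run did Wnthigh and Wntlow overlap, where the Wnthigh array of experiment 4 exceeded the Wntlow array of experiment 3. Lcn2 was lower in Wnthigh than in Wntnegative cells by −3.68 (SE 0.38, limma adjusted p = 8.29e-07) and than in Wntlow cells by −2.31 (SE 0.38, adjusted p = 1.9e-04). Wntlow against Wntnegative gave −1.37 (SE 0.38, adjusted p = 0.0141); this call was lost without the run term (adjusted p = 0.0571) and in each run alone (0.203 and 0.1).

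Lactoferrin and lipocalin 2, both of which keep iron from bacteria, thus differed in opposite directions from Wntnegative cells. Between Wntlow and Wntnegative cells Ltf was 9.23 higher and Lcn2 differed by −1.37. Between Wnthigh and Wntnegative cells Ltf was 4.22 higher and Lcn2 differed by −3.68. Between Wnthigh and Wntlow cells both were lower, by −5.00 and −2.31. Transferrin (Trf), the serum relative of lactoferrin, had yet another order, with means of 15.86 ± 0.39 in Wntlow, 14.20 ± 0.42 in Wntnegative and 11.64 ± 1.85 in Wnthigh arrays. Trf in Wntlow against Wntnegative cells did not pass (limma adjusted p = 0.0587).

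Lyz1 and Lyz2 were at the top of the scale in Wntnegative cells and lower, with a wide spread, in Wnthigh cells. Lyz1 averaged 19.05 ± 0.81 in Wntnegative, 17.00 ± 1.70 in Wntlow and 14.18 ± 2.42 in Wnthigh arrays, and Lyz2 19.11 ± 0.76, 18.03 ± 1.25 and 15.96 ± 2.17. Both genes were among the 73 brightest probe sets on all 6 Wntnegative arrays, Lyz1 also on 1 Wntlow array and Lyz2 on 2. On the Wntnegative arrays of experiments 7 and 9 both read the highest value of the array, 19.69 and 19.81. Differences from Wntnegative cells rest on these values, and how well the scale separates levels there was not tested. Wntnegative Lyz1 read 18.35, 18.42 and 18.18, then 19.69, 19.87 and 19.81. These values are all at the top of the scale, so their small spread says little. Wntlow Lyz1 read 16.57, 18.26 and 16.99, then 13.88, 17.77 and 18.55. Wnthigh Lyz1 read 11.66, 17.09 and 14.50, then 11.01, 14.56 and 16.24, a range of more than 5 log2 units in each run. Experiment 7 gave the lowest Wntlow and the lowest Wnthigh value of the later run, and experiment 9 the highest of both.

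Lyz2 repeated this array pattern. It read 18.41, 18.45 and 18.40, then 19.69, 19.92 and 19.81 in Wntnegative cells. Those values, too, are at the top of the scale. In Wntlow cells it read 17.29, 18.36 and 17.53, then 16.26, 19.26 and 19.52, and in Wnthigh cells 13.62, 17.69 and 16.03, then 13.10, 16.94 and 18.38. Run-centred values of Lyz1 and Lyz2 correlated at a Pearson r of 0.981 over the 18 arrays, which share groups and experiments.

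In Wnthigh cells Lyz1 was lower than in Wntnegative cells by −4.88 (SE 1.0, limma adjusted p = 8.09e-04) and Lyz2 by −3.15 (SE 0.82, adjusted p = 0.00511), both in 5 of 5 shared experiments. For Lyz2 neither run alone passed (adjusted p = 0.0673 and 0.108). Between Wntlow and Wntnegative cells neither passed: Lyz1 differed by −2.05 (95% confidence interval −4.18 to 0.08, adjusted p = 0.158) and Lyz2 by −1.08 (−2.82 to 0.66, adjusted p = 0.383). Both were nevertheless below their Wntnegative partner in 6 of 6 experiments. Between Wnthigh and Wntlow cells Lyz1 differed by −2.82 (SE 1.0, adjusted p = 0.0462) and Lyz2 by −2.08 (SE 0.82, adjusted p = 0.0743), in 5 of 5 shared experiments each, with groups that overlapped in both runs. The Lyz1 call was lost in 15 of 18 omissions of a single array (adjusted p up to 0.117) and without the run term (0.117). The Lyz2 difference passed when dim genes were left out of the adjustment (adjusted p = 0.04). It did not pass in 15 of 18 omissions of a single array. Among the omissions the lowest adjusted p was 0.0277, without the Wnthigh array of experiment 4.

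**Figure D2:**
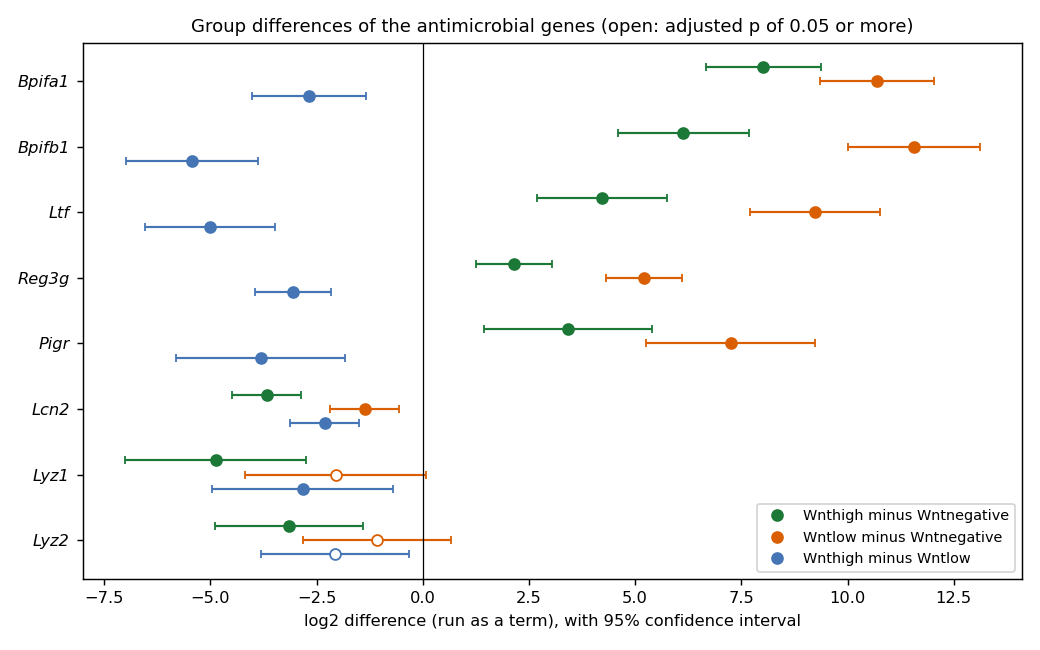
Fitted log2 differences (horizontal axis, deposited scale, with 95% confidence intervals and the run as a term) of each gene (vertical axis) for the 3 comparisons. Filled circles passed the adjusted threshold of 0.05 and open circles did not. In Wntnegative cells Reg3g was below background, Ltf and Bpifb1 were in part at or near it, and both lysozymes were at the top of the scale. In Wnthigh cells most Lcn2 values were close to background. This limits the sizes drawn for these genes. From Bpifa1 to Pigr the differences from Wntnegative lie above 0 and those of Wnthigh from Wntlow below 0, while Lcn2, Lyz1 and Lyz2 lie below 0 in all 3.

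Counted over the 8 genes, 5 were higher and 3 lower in Wnthigh than in Wntnegative cells, where 40.3% of all genes tested passed, 15.7% higher and 24.6% lower. In Wntlow against Wntnegative cells 5 were higher and 1 lower, beside 12.3% and 13.2% of all genes (25.5% in either direction). In Wnthigh against Wntlow cells 7 were lower and 0 higher, beside 16.4% and 11.4% of all genes (27.9% in either direction). For that count of 0, none of the 8 had a positive difference. Groups that did not overlap in either run were found for 4 higher and 3 lower (12.9% and 17.8% of all genes), for 5 higher and 2 lower (8.98% and 6.57%) and for 0 higher and 5 lower (8.04% and 10.3%) in the same order of comparisons. The change of a difference from the earlier to the later run passed the test for none of the 8 genes (limma adjusted p 0.699 to 0.999). For all genes the interaction was called 0 times in each comparison, against 1940, 1757 and 2183 genes at an unadjusted p under 0.05.

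The Wnthigh arrays of the earlier run differed from each other in all 8 genes at once. Experiment 4 gave the highest and experiment 2 the lowest of these 3 arrays for each of the 8. Markers of several cell types moved with them. The mean log2 value of 10 goblet cell markers was 6.56, 9.05 and 7.48 in experiments 2, 4 and 5, that of 10 club cell markers 13.76, 15.69 and 15.13, and that of 10 alveolar type II markers 11.54, 15.64 and 13.69. The mean of 9 ciliated cell markers did not move with them, at 14.48, 14.23 and 14.48. The part of these cell types in the spread of the antimicrobial genes was not tested. In the later run no Wnthigh array was highest or lowest for all 8 genes.

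**Figure D3:**
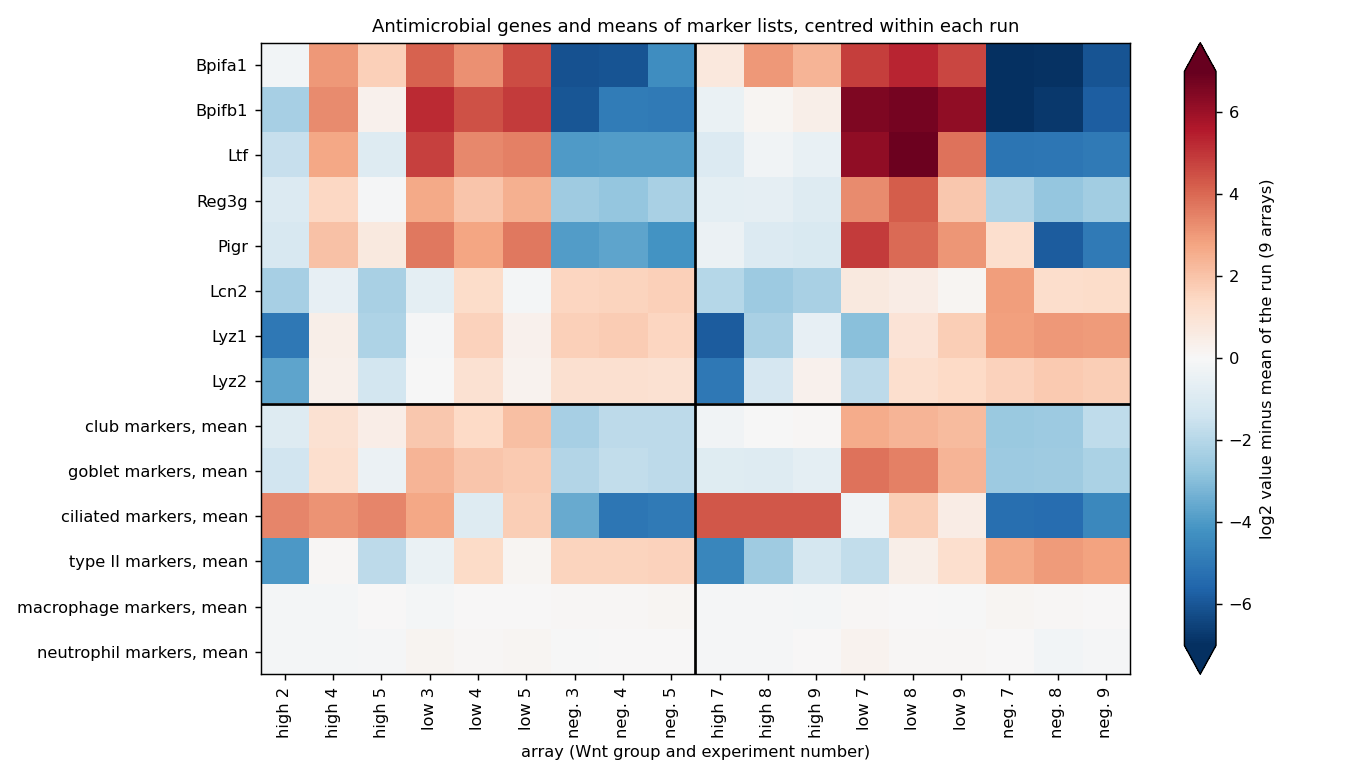
Run-centred log2 values (colour, values beyond 7 on either side drawn at the end of the scale) of the 8 genes and means of 6 marker lists on the 18 arrays, with experiments 2 to 5 left and 7 to 9 right of the line. The upper 5 genes are red in Wntlow columns together with the club and goblet means, Lcn2 and the lysozymes are red in Wntnegative columns together with the type II mean, and the macrophage and neutrophil rows stay close to 0.

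The antimicrobial genes fell into sets by their pattern over arrays. Run-centred values of Bpifa1, Bpifb1, Ltf, Reg3g and Pigr correlated with each other at 0.816 to 0.986 over 18 arrays, and Lcn2 with Lyz1 and Lyz2 at 0.781 and 0.703. Between these sets the values were −0.562 to −0.116. Such correlations include the group differences themselves and describe these arrays only. The protein-coding genes most like Bpifb1 were Gabrp (0.993), Plpp3 (0.991) and Tff2 (0.987). Those most like Ltf were Tff2 (0.991), Muc5b (0.987) and Cyp4a12b (0.98), and those most like Reg3g Tff2 (0.986), Oit1 (0.985) and Cyp4a12b (0.981). Tff2, a trefoil peptide of mucous cells, and Muc5b, a gel-forming mucin of the airway, are both on the goblet marker list.

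For Bpifa1 the most alike genes were Cp (ceruloplasmin, 0.981), Gstm2 (0.981) and Lypd2 (0.98), and for Pigr they were Mboat1 (0.938), Tmem176b (0.937) and Cfb (0.933). The lysozymes had genes of alveolar type II cells beside them. Lyz1 was most like Napsa (0.989), the protease that processes surfactant protein B, Hc (complement C5, 0.985) and Scd1 (0.979), and Lyz2 most like the phosphate carrier Slc34a2 (0.983), Scd1 (0.967) and Napsa (0.947). Lcn2 had other neighbours in this measure, Cpne2 (0.98), Il4ra (the interleukin 4 receptor, 0.978) and Glrx (0.977).

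The lysozymes moved with the mean of the type II markers array by array. The mean of the 10 type II markers was 17.11 to 17.90 in Wntnegative arrays. In Wntlow arrays it was 15.04, 16.88 and 15.65, then 13.17, 15.31 and 16.11, and in Wnthigh arrays 11.54, 15.64 and 13.69, then 10.37, 12.41 and 13.70. Within each group and run other than Wntnegative the order of these means was the order of the Lyz1 values. Of the 10 markers, 9 were lower in Wnthigh and 5 in Wntlow than in Wntnegative cells. Between Wnthigh and Wntlow cells 5 were lower in Wnthigh. The medians were −4.94, −2.50 and −2.81. Among all genes 24.6%, 13.2% and 16.4% were called lower in these comparisons, and 15.7%, 12.3% and 11.4% higher. Of 8 alveolar type I markers, 7 were lower and 1 higher in Wnthigh and 4 lower and 1 higher in Wntlow than in Wntnegative cells, and 4 were lower and 1 higher in Wnthigh than in Wntlow cells. Hc, the type II marker with the largest difference, had means of 11.21 ± 2.99, 14.36 ± 2.76 and 18.06 ± 0.57 in Wnthigh, Wntlow and Wntnegative arrays. Sftpc, the type II marker that passed in no comparison, had means of 19.29 ± 0.60, 19.35 ± 0.53 and 19.29 ± 0.57 in the same order. Its limma adjusted p was 0.971 for Wnthigh and 0.515 for Wntlow against Wntnegative, and 0.587 for Wnthigh against Wntlow. What part of the lysozyme differences goes with the share of type II cells was not tested.

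**Figure D4:**
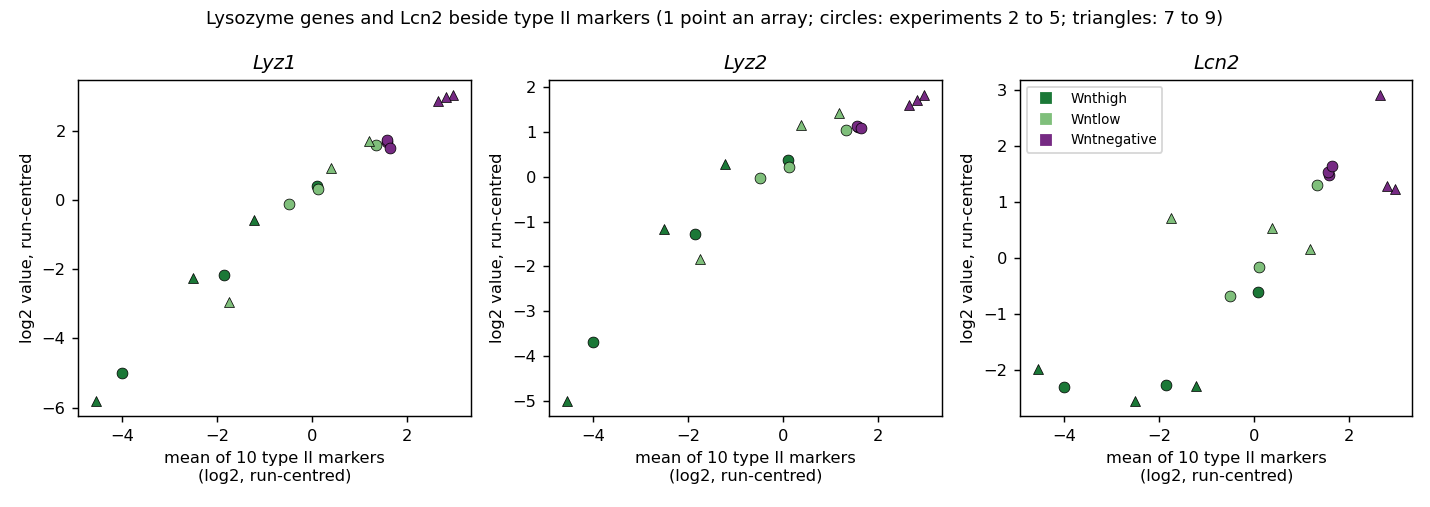
Run-centred log2 values of Lyz1, Lyz2 and Lcn2 (vertical axes) against the run-centred mean of 10 type II markers (horizontal axes), 1 point an array, coloured by Wnt group, with circles for experiments 2 to 5 and triangles for 7 to 9. The lysozyme points lie along a rising line through all 3 groups. Wnthigh Lcn2 values lie between −2.55 and −0.60 over a type II range from −4.55 to 0.10. All of these but that of experiment 4, the highest Wnthigh array on both axes, were close to background.

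Lyz2, Lcn2 and Ltf are also genes of macrophages or neutrophils, and the defining markers of these cells were at or near background in every group. Of 10 macrophage markers, 9 were below background on every array of the later run in each group and 7 to 8 in the earlier run. Adgre1, Mrc1, Siglecf, Tyrobp, Fcer1g, Ctss and Ptprc were below it on all 18 arrays. The log2 sum over the list ran from 8.37 to 9.86 in the earlier and from 7.20 to 8.15 in the later run. Cd68, which encodes a lysosomal protein, was above background and lower in Wnthigh (6.56 ± 1.12) than in Wntnegative arrays (8.05 ± 1.02), by −1.49 (limma adjusted p = 0.0011). In the tests, 3 macrophage markers were lower and 1 higher in Wnthigh than in Wntnegative cells, and none passed for Wntlow against Wntnegative. Between Wnthigh and Wntlow cells 1 was higher in Wnthigh. These comparisons called 40.3%, 25.5% and 27.9% of all genes. Of the 3 lower markers, Siglecf (−0.12) and Fcer1g (−0.27) were below background on all 18 arrays. Of 11 neutrophil markers, 9 to 11 were below background on every array of each group and run, with log2 sums of 7.76 to 8.94 and 6.90 to 8.74 in the earlier and later run. S100a8, S100a9, Ngp, Mpo, Elane, Cxcr2, Csf3r, Mmp8 and Ly6g were among them on all 18 arrays. Retnlg was the exception, at 7.42 ± 1.0 in Wntlow against 4.93 ± 1.04 in Wntnegative and 4.98 ± 0.98 in Wnthigh arrays, the 1 neutrophil marker called (higher in Wntlow than in either other group).

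Many airway cell markers accompanied the upper set, on lists chosen with earlier results of these data known. Beside the counts that follow, 40.3% of all genes passed for Wnthigh against Wntnegative, 25.5% for Wntlow against Wntnegative and 27.9% for Wnthigh against Wntlow. Of 10 goblet markers, 9 were higher in Wntlow and 5 higher and 2 lower in Wnthigh than in Wntnegative cells, and 9 were lower in Wnthigh than in Wntlow cells, with medians over the list of 3.08, 0.80 and −3.18. Tff2 was at least 11.15 higher in Wntlow and at least 4.52 higher in Wnthigh than in Wntnegative cells, where it was below background on all arrays. Muc5b averaged 15.49 ± 1.38, 8.81 ± 2.04 and 5.11 ± 0.53 in Wntlow, Wnthigh and Wntnegative arrays. Of 10 club cell markers, 9 were higher in each reporter group than in Wntnegative cells and 7 were lower in Wnthigh than in Wntlow cells (medians 2.08 for Wnthigh, 3.53 for Wntlow and −1.25). Cyp2f2, Cbr2 and Ces1d did not pass between Wnthigh and Wntlow cells (−0.17, 0.00 and −0.01, limma adjusted p = 0.544, 0.995 and 0.972). Scgb1a1 differed between Wnthigh and Wntlow cells by −0.90 (adjusted p = 0.0493). The chloride channel subunit Gabrp, which was also the gene most like Bpifb1 over these arrays, had the largest difference on the list. Its means were 17.05 ± 1.04, 12.41 ± 1.78 and 6.64 ± 0.97 in Wntlow, Wnthigh and Wntnegative arrays. Ciliated cell markers ran otherwise between the reporter groups: 8 of 9 were higher in Wnthigh than in Wntlow cells. Rsph4a, for example, was at 16.43 ± 0.19 against 13.00 ± 1.74, with 5.88 ± 1.57 in Wntnegative arrays. Mcidas, above background on only 2 Wnthigh arrays, was instead lower in Wnthigh than in Wntlow cells by −1.51 (limma adjusted p = 6.68e-05). Against Wntnegative cells, 8 of the 9 were higher in Wnthigh and all 9 in Wntlow cells. Of 7 markers of submucosal gland serous cells, 3 (Azgp1, Sox9 and Fxyd3) were higher in each reporter group than in Wntnegative cells. Sox9 and Fxyd3 were near background, and Sox9 was not above it on any Wntnegative array. Dcpp3, Lpo, Pip and Lman1l were below background on all 18 arrays. The part of any cell type in the antimicrobial differences was not tested.

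Other airway defence genes, not all of which encode secreted proteins, included genes with each of the orders seen above. Of 29 measured, 5 were higher and 5 lower in Wnthigh than in Wntnegative cells, 9 were higher and 3 lower in Wntlow than in Wntnegative cells, and 2 were higher and 11 lower in Wnthigh than in Wntlow cells. Of all genes 40.3%, 25.5% and 27.9% passed in these comparisons, so the first count is no larger than that of genes in general. The medians were −0.03, 0.00 and −0.04, beside −0.05, −0.03 and −0.01 over all genes. Pglyrp1, a peptidoglycan recognition protein, had the order of Bpifb1, with means of 12.04 ± 1.39 in Wntlow, 7.28 ± 1.30 in Wnthigh and 6.06 ± 0.70 in Wntnegative arrays, the last 2 of which did not differ past the threshold (limma adjusted p = 0.161). Cfb averaged 10.77 ± 1.98, 7.17 ± 0.96 and 5.58 ± 1.16 in the same order (0.0908 for Wnthigh against Wntnegative). The lectin Itln1 was at least 4.92 higher in Wntlow than in Wntnegative cells. The mucosal chemokine Cxcl17 was high in both reporter groups, at 13.00 ± 0.71 in Wntlow and 13.29 ± 0.44 in Wnthigh (difference 0.29, limma adjusted p = 0.7), against 7.57 ± 1.23 in Wntnegative arrays. The collectin Sftpd, named after its values were seen, ran the other way, at 17.56 ± 0.44 in Wntnegative, 16.23 ± 0.45 in Wntlow and 12.45 ± 1.91 in Wnthigh arrays, with −5.11 (adjusted p = 6.94e-06) for Wnthigh against Wntnegative. The peroxidase Lpo, its oxidase partners Duox1 and Duox2 and the defensins Defb2 and Defb4 were below background on all 18 arrays. So was Ang4, which is counted as lower in both comparisons with Wntnegative cells.

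Relatives of the 8 genes were mostly below background. Of 41 measured members of the BPI fold, lectin, lysozyme, transferrin and lipocalin families, 32 to 37 were below background on every array of each group and run. In each comparison with Wntnegative cells 4 were higher and 4 lower, and between Wnthigh and Wntlow cells 3 were higher and 3 lower. The shares of all genes that passed were 40.3% for Wnthigh against Wntnegative, 25.5% for Wntlow against Wntnegative and 27.9% for Wnthigh against Wntlow. The counts of relatives include Reg1, Reg3a and Lalba, which were below background on all 18 arrays. Pltp, a phospholipid transfer protein with a BPI fold, had means of 14.82 ± 0.32 in Wnthigh, 11.10 ± 1.97 in Wntlow and 5.79 ± 1.03 in Wntnegative arrays. The lipocalin Orm1, an acute phase protein, had the same order, at 12.43 ± 0.83, 8.65 ± 2.17 and 5.25 ± 0.80. Bpifb5, a relative of Bpifb1 in the same gene cluster, was highest in Wntnegative cells. It averaged 9.30 ± 1.28 in Wntnegative, 6.80 ± 1.79 in Wntlow and 5.27 ± 1.23 in Wnthigh arrays, with log2 differences from Wntnegative of −2.51 (SE 0.51, limma adjusted p = 0.00171) and −4.03 (SE 0.51, adjusted p = 7.5e-06). Only 2 of its 6 Wnthigh arrays were above background, so the size of the Wnthigh difference is uncertain. Between Wnthigh and Wntlow cells it was lower by −1.53 (adjusted p = 0.0358), the direction of Bpifb1 in that comparison.

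Receptors, factors and regulators of the pathways known to induce these genes were above background nearly throughout, 19 to 21 of 22 on every array of each group and run. The 22 include the inhibitors Nfkbia and Socs3, and Socs3 was below background on all 18 arrays. Socs3 is still counted among the 12 genes lower in Wnthigh than in Wntnegative cells. Beside the counts that follow, 40.3%, 25.5% and 27.9% of all genes passed in the same order of comparisons. Of the 22, 6 were higher and 12 lower in Wnthigh than in Wntnegative cells, 7 were higher and 7 lower in Wntlow than in Wntnegative cells, and 4 were higher and 11 lower in Wnthigh than in Wntlow cells, with medians of −0.22, 0.04 and −0.36. Il22ra1, the IL-22 receptor chain, averaged 11.61 ± 0.61 in Wnthigh, 8.07 ± 1.64 in Wntlow and 5.18 ± 0.65 in Wntnegative arrays. Il6ra, the IL-6 receptor chain, was likewise higher in both reporter groups, at 10.17 ± 1.02 in Wnthigh and 9.92 ± 0.92 in Wntlow against 6.40 ± 0.91 in Wntnegative arrays. Osmr, the oncostatin M receptor, was instead lowest in Wnthigh arrays, at 6.56 ± 1.62 against 10.44 ± 0.85 in Wntlow and 9.99 ± 0.86 in Wntnegative arrays. Cebpd, a C/EBP factor, had the order of Lcn2, with means of 8.57 ± 1.56, 7.60 ± 1.54 and 5.37 ± 1.60 in Wntnegative, Wntlow and Wnthigh arrays. Nfkbiz and Il17ra, picked here for this order after their values were seen, had means of 9.23, 7.66 and 7.16 for Nfkbiz, a nuclear cofactor of NF-kappaB, and of 7.90, 7.07 and 6.42 for the IL-17 receptor chain Il17ra. Nfkbiz in Wnthigh against Wntlow cells did not pass (limma adjusted p = 0.14). Other genes of the list had other orders. In Wntnegative, Wntlow and Wnthigh arrays the means were 7.51, 7.90 and 7.52 for Il17rc and 6.62, 6.83 and 7.39 for Traf3ip2. For Il1r1 they were 8.55, 8.00 and 9.44.

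Genes that serve the IgA route besides Pigr were called in 3, 4 and 5 of 10 cases, beside 40.3%, 25.5% and 27.9% of all genes. Of the 10, 2 were higher and 1 lower in Wnthigh than in Wntnegative cells, 3 higher and 1 lower in Wntlow than in Wntnegative cells, and 3 higher and 2 lower in Wnthigh than in Wntlow cells. The vesicle proteins Rab25 and Rab3d were higher in Wntlow than in Wntnegative cells by 0.92 and 0.94 (limma adjusted p = 8.41e-04 and 5.99e-05), and the motor Myo5b was lower by −1.21 (adjusted p = 1.78e-04). Jchain, the joining chain of polymeric IgA, and Tnfrsf17, a plasma cell receptor, were below background on all 18 arrays. Mzb1, a chaperone known from plasma cells, was at least 2.95 higher in Wnthigh and at least 1.12 higher in Wntlow than in Wntnegative cells. Of 7 markers of B and plasma cells, which include Mzb1, 4 to 6 were below background on every array of each group and run, with Ms4a1 among them on all 18. Sdc1, which epithelial cells also make, was above background throughout. Of the 7, 1 was higher and 2 lower in Wnthigh and 2 higher and 1 lower in Wntlow than in Wntnegative cells, and 1 was higher and 2 lower in Wnthigh than in Wntlow cells. Cd79a and Pou2af1, which enter these counts, were near or below background.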

How the data were processed

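The authors made the deposited log2 values with RMA, per the submitters' processing notes. Which program and build they used is not given in the sources used here. From 8 ng of total RNA per sort, targets were made with the WT Pico reagents, per the labels' protocols. The table holds 72688 probe sets, 6918 of them controls, on 18 arrays. Probe sets with a single value on all 9 arrays of a run numbered 162 (experiments 2 to 5) and 238 (experiments 7 to 9).

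Gene symbols came from GEO's annotation of the array, which gave 1 symbol to 30604 probe sets and several to 2146, which were left out. After 827 symbols were updated, 30142 genes remained, 19043 of them protein coding; 355 genes had several probe sets and were read from the brightest on average. No dim genes were filtered out. A linear model with group and run as terms was fitted to all 18 arrays in limma 3.58.1 (R 4.3.3), with moderated two-sided tests from eBayes. Benjamini-Hochberg adjustment ran over all 30142 genes, a call needed an adjusted p under 0.05, and the code was tested on simulated data. Replicates are pools of separate experiments, and 6 arrays per group limit the precision.

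The experiment numbers in the titles pair arrays across groups. Residuals of same-numbered arrays from group means correlated at 0.486 to 0.802 in 16 of 16 pairs, and after removal of run means at −0.147 to 0.41, with 8 of 16 above 0.1. Other settings tried were no run term, a filter on dim genes, quantile normalization, array centring, 1 run at a time, the experiment as a block (fixed, or random with the run), the mean of probe sets, a trended robust variance, array weights, 2 groups at a time, no Wntlow arrays of experiments 3 and 4, and the omission of each array. Upstream windows came from RefSeq. The genes and the marker and pathway lists were chosen with earlier results of these data known. Named are the 8 genes, for each the 3 protein-coding genes with the most similar run-centred values, and of each list at most 4 genes with the largest difference past the threshold, with further list genes where a result turned on them.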

Additional observations from a re-analysis of the deposited data

Results flagged for a closer look

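In 24 sets of 6 arrays (8 genes in 3 groups), each looked at on the deposited and on the run-centred scale, the gap of the highest or lowest array to the next was set against Dixon's 95% critical value, which chance passes in about 1 in 20 sets. It was passed 8 times, by arrays of experiments 4 and 7. A gene flagged on both scales is counted on each. The genes share arrays and the deposited scale holds the offset between runs, so the share of 1 in 20 is only a rough guide. The Wnthigh array of experiment 4 stood apart for Ltf (12.01 as deposited and 2.69 run-centred), for Reg3g (1.44 run-centred) and for Lcn2 (7.46 as deposited and −0.60 run-centred), each time as the highest Wnthigh array. Without that array the Ltf difference of Wnthigh from Wntnegative cells was 3.59, and from Wntlow cells −5.64.

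The Wntnegative array of experiment 7 stood apart for Pigr (13.11 as deposited and 1.17 run-centred) and for Lcn2 (2.91 run-centred), again as the highest of its group.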

How the results depend on the processing

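Of 24 differences (8 genes in 3 comparisons), 13 kept their direction and their side of the threshold under all 31 other settings, and none was reversed. Without the run term 2824, 1061 and 1351 genes were called for Wnthigh against Wntnegative, Wntlow against Wntnegative and Wnthigh against Wntlow, against 12142, 7697 and 8402 with it. Experiments 2 to 5 alone gave 2532 and 3291 genes for the last 2 of these, and experiments 7 to 9 alone 7906 and 4471 for the first 2. Of the 8 antimicrobial genes, 5 passed for Wnthigh against Wntnegative in experiments 7 to 9 alone (not Lyz2, Pigr or Reg3g), and 2 for Wnthigh against Wntlow in experiments 2 to 5 alone (Reg3g and Pigr). A single run has 3 arrays a group. Omission of 1 array left 8, 6 and 6 to 8 genes called in the 3 comparisons. Blocking on the experiment, as a fixed or random replicate block, changed no call of the 8 genes. With the fixed block, in which the Wnthigh array of experiment 2 has no partner and adds nothing to the differences, Lyz1 in Wnthigh against Wntlow gave −2.44 (limma adjusted p = 0.0404) and Pigr in Wnthigh against Wntnegative 3.59 (adjusted p = 0.00839), and 11573, 8002 and 8139 genes were called. Signal over background limits Reg3g, Ltf and Bpifb1 in Wntnegative arrays and Lcn2 in Wnthigh arrays, and the top of the scale limits Lyz1 and Lyz2.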
